A study of Homo sapiens with 8 samples.

Results

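The respiratory chain is the set of protein complexes of the inner mitochondrial membrane that passes electrons from NADH and succinate to oxygen and pumps protons for ATP synthesis. It is built from 2 genomes. Most subunits are encoded in the nucleus and imported, while 13 subunits are encoded in mitochondrial DNA, which is read as long transcripts from promoters inside the organelle by its own RNA polymerase. Complexes I, III and IV are mixtures of subunits from both genomes, and complex II is wholly nuclear. Nuclear subunit genes are known targets of the transcription factors NRF1, GABP and YY1 and of the coactivator PPARGC1A.

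Members were chosen by symbol: the NDUFA, NDUFB, NDUFC, NDUFS and NDUFV genes, SDHA to SDHD, the UQCR genes, COX4 to COX8 genes, CYC1, CYCS, and the mitochondrially encoded ND, CO, CYB and ATP mRNAs. The rule matched 189 of 35238 symbols in the count table, of which 105 were pseudogenes and were left out. The 84 members were 71 nuclear genes and 13 mitochondrial ones. By complex the nuclear members were 37 of complex I, 4 of complex II, 10 of complex III, 19 of complex IV and cytochrome c itself (CYCS), which carries electrons between complexes III and IV. The mitochondrial members were 7 of complex I, 1 of complex III, 3 of complex IV and 2 of the ATP synthase (complex V). Of the 84, 78 passed the low-count filter and were tested among 15085 genes.

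Bulk mRNA sequencing was done on MP38, a BAP1-mutant human uveal melanoma cell line, in 4 groups of 2 libraries after 24 h. Control cells received 0.1% DMSO, and the drugs, in that same solvent, were romidepsin at 40 nM and quisinostat at 40 nM, which are histone deacetylase (HDAC) inhibitors, and mivebresib at 1200 nM, a BET bromodomain inhibitor. The libraries of a group came from duplicate wells of 1 line, so p-values measure only the spread between wells. Each library held 28483235 to 29359024 counts. Levels are CPM, counts scaled to library size with TMM factors, given for replicates 1 and 2 of each group in that order, and "rose" and "fell" are used for an adjusted p below 0.05 in edgeR's quasi-likelihood test over all 15085 genes. Counts are relative to the library, so less of an mRNA per cell and fewer cells making it cannot be told apart. The melanocytic markers MLANA (80.2 to 219 CPM), PMEL (349 to 593), TYRP1 (2748 to 4115), MITF (124 to 351) and SOX10 (52.8 to 216) were present in all 8 libraries. The others listed were low: TYR at 1.51 to 3.51 CPM, S100B at 0.219 to 0.446 CPM and DCT at or below 0.18 CPM. Of 11 markers of blood, endothelial and fibroblast cells, CD3E and CDH5 had no count in any library and only CD68, PECAM1 and COL1A1 passed the filter. MITF, SOX10 and MLANA fell with quisinostat, these and PMEL fell with mivebresib, and SOX10 alone fell with romidepsin, of 7 melanocytic markers tested. COL1A1 rose with both HDAC inhibitors and PECAM1 with quisinostat (edgeR adjusted p = 0.0221, and 0.15 without control 1), and the summed level of the 11 other markers was 67.7 and 85.3 CPM in control and 63.2 to 85.1 with the drugs. The part of these changes in the results on the respiratory chain was not tested.

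The 2 control libraries differed from each other in the members themselves, and every comparison with control rests on them. Of the 65 nuclear members tested, 61 were higher in control 1 than in control 2, with a median difference of 0.41 on the log2 scale, and all 13 mitochondrial mRNAs were lower in control 1, with a median of -0.29. Coding length moved with this difference over all genes. Between the controls the median log2 difference was 0.44 for the 308 tested nuclear genes with up to 300 coding bases, 0.29 above that and up to 600 bases, 0.13 up to 1200, -0.043 up to 3000 and -0.24 beyond, and Spearman's rho over 13829 genes of the same 2 libraries was -0.45. Nuclear respiratory chain subunits are small proteins, and 50 of the 65 have at most 600 coding bases. Members of up to 300 bases differed by 0.60 and the next class, up to 600, by 0.40, somewhat more than other genes of their length. In the other groups the replicate medians over the nuclear members were -0.21 for romidepsin, 0.17 for quisinostat and 0.089 for mivebresib. Values without control 1 are therefore given beside the main results, and comparisons between drugs, which do not set a drug against the controls, are given on their own.

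**Figure D1:**
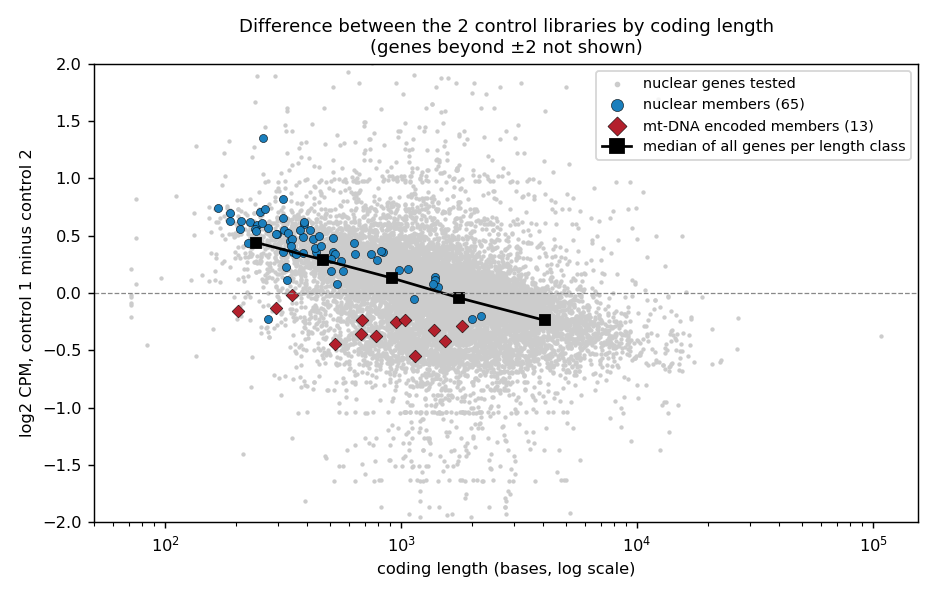
Log2 CPM of control 1 minus control 2 (y axis) against coding length in bases (log x axis) for tested nuclear genes (grey), nuclear members (blue) and the 13 mitochondrial mRNAs (red diamonds); black squares are the medians of 5 length classes, drawn at each class's median length. The class medians descend from 0.44 to -0.24, most nuclear members lie at the short, high end, and the mitochondrial mRNAs lie below 0.

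Few nuclear members rose with any drug. With romidepsin 1 of the 65 nuclear members tested rose, where 15.2% of all genes tested rose, and 15 fell, where 15.8% of all genes did. With quisinostat 2 rose against 28.0% of all genes, and 18 fell against 25.1%. With mivebresib 1 rose against 22.2%, and 16 fell against 24.1%. As shares of the 65, the members that fell made up 23.1%, 27.7% and 24.6%, above the background with romidepsin and close to it with the other drugs. The median log2 fold change of the nuclear members was -0.39 with romidepsin, -0.23 with quisinostat and -0.22 with mivebresib, against -0.012, -0.0036 and 0.0067 over all genes. These medians and counts leaned on control 1. Without it the same 65 members had medians of -0.12, -0.032 and -0.039. The members that rose then numbered 1, 8 and 6 (background 14.4%, 27.2% and 21.8% of 15561 genes), and those that fell numbered 4, 15 and 11 (13.8%, 26.0% and 23.6%), counting the mitochondrial mRNA MT-ND6, which fell with quisinostat in that fit. Without control 2 the members that fell, all nuclear, numbered 50, 44 and 47 (background 22.3%, 28.0% and 26.4% of 15566 genes). Those that rose numbered 2, 2 and 9 (background 20.3%, 28.6% and 24.2%), of which 1, 1 and 8 were mitochondrial mRNAs. Treated libraries mattered as well. Fewer members fell with romidepsin or mivebresib when either library of that drug was left out, and with quisinostat without quisinostat 2. Such fits leave 1 library in a group, and their shares of all genes are not given here. These drops are therefore no result about the members. With the coding-length trend of each library taken out, an alternative chosen after seeing the data, 17, 28 and 24 nuclear members fell. These were 26.2%, 43.1% and 36.9% of the 65, each above the background of 18.7%, 29.5% and 25.6%. In that fit 1, 5 and 6 rose (1.54%, 7.69% and 9.23%, background 18.4%, 29.5% and 26.3%). The nuclear medians were then -0.18, -0.19 and -0.14, against 0.0086, -0.012 and 0.025 over all genes.

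**Figure D2:**
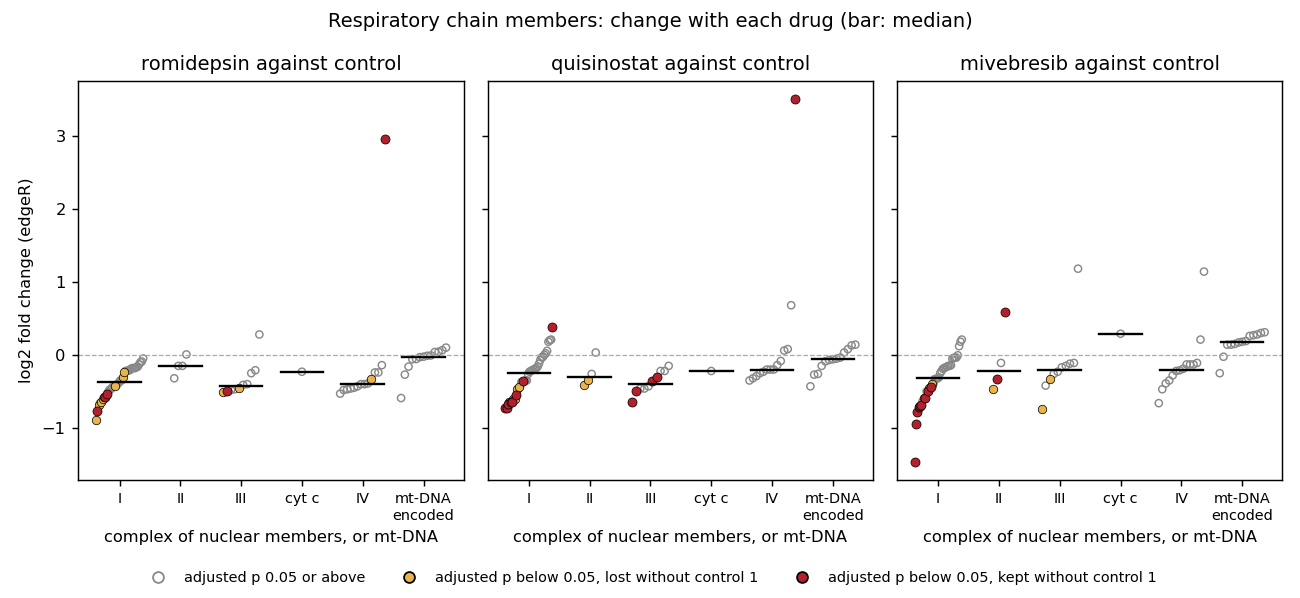
Log2 fold change against control (y axis) of each tested member with the 3 drugs, with nuclear members by complex and the mitochondrial (mt-DNA encoded) members at the right; bars are medians, open points did not pass an adjusted p of 0.05, and filled points passed, in red where they also passed without control 1. Most nuclear points lie below 0, the highest points are COX6B2 with romidepsin (2.95) and quisinostat (3.50), and no mitochondrial point is filled.

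Complex I, the NADH dehydrogenase, is the largest complex, with 36 of the 65 nuclear members tested. Of these 11 fell after romidepsin (30.6%) and 12 after each of the other drugs (33.3%), against the 15.8%, 25.1% and 24.1% of all genes given above, and NDUFA5, after quisinostat, was the only one to rise. The excess of falls leaned on control 1. The median log2 fold changes of the nuclear complex I members were -0.37, -0.25 and -0.32. Without control 1 they were -0.13, -0.11 and -0.052, against 0.0042, 0.022 and 0.012 over all genes. In complex III 3, 4 and 2 of 10 members fell. The medians there were -0.43, -0.39 and -0.2, and without control 1 they were -0.14, -0.17 and -0.072. Fewer calls of a fall passed with both controls, without either one, and with the length trend taken out. They were NDUFA6, NDUFS3, NDUFS4 and, in complex III, CYC1 with romidepsin. With quisinostat they were NDUFA6, NDUFB2, NDUFB9, NDUFB10, NDUFS3, NDUFS6 and NDUFS8 and, in complex III, CYC1, UQCRFS1, UQCRC1 and UQCRC2. With mivebresib they included NDUFA6, NDUFA9, NDUFB4, NDUFB7, NDUFB8, NDUFC1, NDUFS3 and NDUFS8 and, in complex II, SDHC. Of these members, those outside the naming rule were chosen after their values were seen.

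Among the nuclear core subunits of complex I, which carry the flavin and the iron-sulfur clusters or lie beside them, NDUFS3 fell with all 3 drugs. NDUFS3 read 88.6 and 72.7 CPM in control, 54.5 and 56.5 with romidepsin, 54.5 and 49.1 with quisinostat, and 63.3 and 55.8 with mivebresib. All 6 treated libraries lay below both controls. The log2 fold changes were -0.54, -0.64 and -0.44 (SE 0.11 each), with edgeR adjusted p of 0.00864, 0.0018 and 0.0134, and without control 1 of 0.0175, 0.00154 and 0.0343. With romidepsin the call, like those of NDUFA6 and CYC1, did not pass without romidepsin 1, where the log2 fold change was -0.51. The gene shares 721 exonic bases with PTPMT1 on the same strand in GENCODE, so its reads may not all be its own. NDUFS8, which binds iron-sulfur clusters, read 90.3 and 66.8 in control, 56.0 and 51.0 with quisinostat, and 52.1 and 45.9 with mivebresib. It fell with these drugs by 0.55 and 0.68 on the log2 scale (SE 0.15 each, edgeR adjusted p = 0.0131 and 0.00598), and with romidepsin its change of -0.38 did not pass (edgeR adjusted p = 0.0819). NDUFV1, the flavin-binding subunit, was at 150 and 139 in control and 168 and 164 with quisinostat (log2 0.20, SE 0.085, edgeR adjusted p = 0.081, and 0.0326 without control 1). NDUFS1, NDUFS7 and NDUFV2 passed with no drug, with log2 fold changes between -0.22 and 0.12, although NDUFS1 passed as lower with quisinostat and mivebresib once control 1 was left out (edgeR adjusted p = 0.011 and 0.0204).

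The accessory subunits of complex I surround this core and do not carry electrons. NDUFA6, an accessory subunit of the matrix arm, read 86.8 and 61.9 CPM in control, 40.5 and 46.7 with romidepsin, 48.3 and 41.1 with quisinostat, and 46.0 and 53.0 with mivebresib. Its control libraries were far apart, yet all 6 treated libraries were below the lower one. The log2 fold changes were -0.77, -0.73 and -0.59 (SE 0.17, 0.16 and 0.16; edgeR adjusted p = 0.00907, 0.00559 and 0.0184).

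With mivebresib the accessory subunits NDUFC1 and NDUFB7 had the largest falls of all members. NDUFC1, a small membrane-arm subunit, read 37.2 and 24.1 CPM in control, 18.5 and 25.6 with romidepsin, 22.3 and 17.8 with quisinostat, and 11.2 and 11.1 with mivebresib. The mivebresib libraries were below the other 6, and the log2 fold change was -1.46 (SE 0.23, edgeR adjusted p = 0.00107). With quisinostat it fell by 0.61 on the log2 scale (SE 0.22, edgeR adjusted p = 0.0431, and 0.209 without control 1). NDUFC1 lies on chromosome 4 (hg38, 139266880 to 139302551, minus strand) and shares 360 exonic bases with MGARP on the same strand. NDUFB7 read 61.7 and 42.0 in control and 29.7 and 23.8 with mivebresib (log2 -0.95, SE 0.19, edgeR adjusted p = 0.00374), and NDUFB8 read 70.6 and 58.2 in control and 40.1 and 39.2 with mivebresib (log2 -0.70, SE 0.12, edgeR adjusted p = 0.00153). These subunits belong to the membrane arm, and NDUFB8 shares 675 exonic bases with AL133352.1 on the same strand and 325 with HIF1AN on the opposite one. NDUFB4, another membrane-arm subunit, fell from 58.1 and 38.3 to 26.1 and 30.1 CPM (log2 -0.78, SE 0.19, edgeR adjusted p = 0.0102), and it was chosen after its values were seen. NDUFA9 (chromosome 12, 4649095 to 4694317, plus strand, sharing 1103 exonic bases with AC005833.1 and 606 with AC005832.4 on its strand) sits at the junction of the matrix and membrane arms. It read 70.3 and 72.8 CPM in control, close to each other, 59.9 and 62.2 with romidepsin, 63.5 and 62.2 with quisinostat, and 44.9 and 42.9 with mivebresib. With mivebresib it fell by 0.71 on the log2 scale (SE 0.074, edgeR adjusted p = 0.00012) and by 0.23 with romidepsin (SE 0.073, edgeR adjusted p = 0.0442, and 0.0556 without control 1), and its change of -0.19 with quisinostat did not pass (edgeR adjusted p = 0.0576, and 0.0429 without control 1). NDUFB1, the largest fall with romidepsin at -0.89 (SE 0.24, edgeR adjusted p = 0.0256), shows the opposite case. It read 33.5 and 19.0 in control and 12.3 and 16.1 with romidepsin, and without control 1 it no longer passed (edgeR adjusted p = 0.0739).

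NDUFA5, an accessory subunit of the matrix arm, went in opposite directions with quisinostat and mivebresib. Its levels were 125 and 97.4 CPM in control, 102 and 107 with romidepsin, 152 and 137 with quisinostat, and 86.7 and 81.1 with mivebresib. It rose by 0.38 with quisinostat (SE 0.12, edgeR adjusted p = 0.0265, and 0.08 without control 2) and with mivebresib it fell by 0.40 on that scale (SE 0.12, edgeR adjusted p = 0.0242, and 0.0759 without control 1). Set against each other, in the fit that takes its spread from all 8 libraries, mivebresib was lower than quisinostat by a log2 difference of -0.78 (SE 0.12, edgeR adjusted p = 0.000664).

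**Figure D3:**
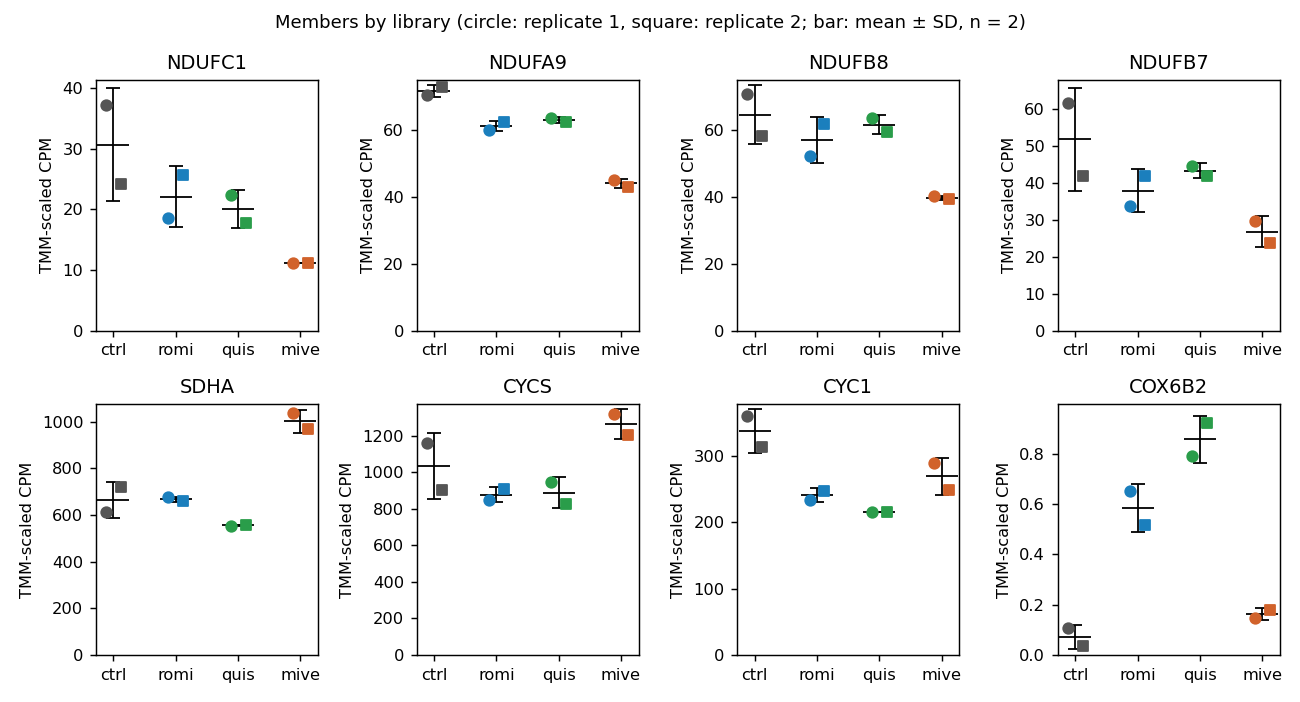
TMM-scaled CPM (y axis, from 0) of 8 members in each library of control (ctrl), romidepsin (romi), quisinostat (quis) and mivebresib (mive); circles are replicate 1, squares replicate 2, and bars the mean ± SD of 2 libraries. Mivebresib libraries are lowest for NDUFC1, NDUFA9, NDUFB8 and NDUFB7 and highest for SDHA and CYCS, while COX6B2 stays under 1 CPM.

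Complex II, succinate dehydrogenase, links the chain to the citric acid cycle. SDHA (chromosome 5, 218241 to 256700, plus strand), its flavin-binding subunit, read 611 and 719 CPM in control, 675 and 661 with romidepsin, 554 and 556 with quisinostat, and 1036 and 967 with mivebresib. The mivebresib libraries lay above the other 6 and the quisinostat libraries below them. The rise with mivebresib was 0.59 on the log2 scale (SE 0.10, edgeR adjusted p = 0.00184), and SDHA was the 1 member to rise with this drug. The change with quisinostat was -0.26 (SE 0.10, edgeR adjusted p = 0.061, and 0.00384 without control 1). Its pseudogenes SDHAP1, SDHAP2 and SDHAP3 held 22 to 126 counts in a library. SDHB, the iron-sulfur subunit, fell with mivebresib from 123 and 96.1 to 87.2 and 71.1 CPM (log2 -0.47, SE 0.14, edgeR adjusted p = 0.0228, and 0.0713 without control 1). SDHC, a membrane anchor, fell from 214 and 188 to 163 and 156 (log2 -0.33, SE 0.095, edgeR adjusted p = 0.0204), and it shares 774 exonic bases with CFAP126 on the opposite strand. SDHD, the other anchor, had -0.11 with mivebresib (SE 0.11, edgeR adjusted p = 0.438), and it fell by 0.34 on the log2 scale with quisinostat (SE 0.11, edgeR adjusted p = 0.0335, and 0.118 without control 1), as did SDHB by 0.41 (SE 0.14, edgeR adjusted p = 0.0344, and 0.127 without control 1). With romidepsin no member of complex II passed in edgeR, DESeq2 or limma-voom, and none had an unadjusted p under 0.05.

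Complex III passes electrons from ubiquinol to cytochrome c. Of its 10 nuclear members 3 fell after romidepsin, 4 after quisinostat and 2 after mivebresib, and none rose in edgeR, DESeq2 or limma-voom, with 1 higher at an unadjusted p under 0.05 in edgeR, for mivebresib. CYC1, the cytochrome c1 subunit, read 360 and 313 CPM in control, 233 and 248 with romidepsin, 216 and 215 with quisinostat, and 289 and 249 with mivebresib. All treated libraries were below the controls. The log2 fold changes were -0.49, -0.64 and -0.33 (SE 0.11 each; edgeR adjusted p = 0.00941, 0.00111 and 0.0333), and without control 1 the last did not pass (edgeR adjusted p = 0.0926). UQCRFS1, the Rieske iron-sulfur protein, fell by 0.45 with romidepsin and 0.49 with quisinostat on the log2 scale (SE 0.12 each, edgeR adjusted p = 0.0249 and 0.00989), the first of which was 0.0785 without control 1, and its processed copy UQCRFS1P1 held 113 to 215 counts. UQCRC1 and UQCRC2, the large matrix-side core proteins, fell with quisinostat by 0.36 and 0.30 on the log2 scale (SE 0.096 and 0.085, edgeR adjusted p = 0.013 and 0.0159). UQCRC1 went from 155.8 and 150.5 CPM to 125.5 and 113.5. Among the members of the complex that fell, UQCRB changed most with romidepsin at -0.51 and UQCR10 with mivebresib at -0.74 (edgeR adjusted p = 0.0491 and 0.0235), and neither passed without control 1 (edgeR adjusted p = 0.206 and 0.0739). Cytochrome c, CYCS, read 1160 and 904 in control, 847 and 908 with romidepsin, 948 and 826 with quisinostat, and 1321 and 1203 with mivebresib. Against control it passed with no drug (log2 -0.23, -0.22 and 0.29; edgeR adjusted p = 0.223, 0.208 and 0.116), and without control 1 it passed as higher with mivebresib (edgeR adjusted p = 0.00373).

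Complex IV, cytochrome c oxidase, takes electrons from cytochrome c to oxygen. Of its 14 nuclear members tested, COX4I1 fell with romidepsin (106 and 85.6 CPM in control, 72.6 and 79.4 with the drug, log2 -0.33, SE 0.11, edgeR adjusted p = 0.0473, and 0.229 without control 1). With mivebresib no nuclear member of complex IV passed in edgeR, where 1 had an unadjusted p under 0.05. DESeq2 called 1 as lower and limma-voom none. COX6B2 (chromosome 19, 55349306 to 55354814, minus strand, sharing 1178 exonic bases with AC020922.1 on its strand), the isoform of COX6B known from testis, was the only member past the thresholds of the study, an adjusted p under 0.05 with a log2 fold change beyond 1.5. Those thresholds were met upwards by 3.77%, 11.2% and 3.96% of all genes for romidepsin, quisinostat and mivebresib, and downwards by 0.312%, 1.03% and 4.36%. COX6B2 had 3 and 1 counts in control, 19 and 15 with romidepsin, 25 and 29 with quisinostat, and 4 and 5 with mivebresib. Every HDAC inhibitor library was above the controls and mivebresib libraries, at levels that stayed under 1 CPM. The summed counts were 8.13 times control with romidepsin (95% exact conditional interval 2.9 to 31.5, counting error only) and 11.9 times with quisinostat (4.39 to 45.3). The edgeR adjusted p values were 0.00437 and 0.00053. COX6B2 passed the low-count filter only through the HDAC inhibitor libraries, where it was high, so this test is no separate support for the rise. Its common counterpart COX6B1 read 104 and 67.9 CPM in control and 55.3 to 81.6 in the treated libraries and passed with no drug.

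The other tissue-restricted isoforms stayed low. COX6A2 had no count in any library, which allows up to 3 counts in each, COX4I2 and COX7A1 had at most 1, COX8C at most 5 and COX7B2 at most 9. These genes and the readthrough NDUFC2-KCTD14, with 0 to 34 counts, are the 6 untested members. Their common counterparts COX4I1, COX6A1, COX7A2, COX7B and COX8A lay between 53.2 and 217.5 CPM. NDUFA4L2, a paralog of the complex IV subunit NDUFA4, had 8 to 34 counts in a library, with 24 and 8 in the controls, and passed with no drug (with quisinostat edgeR adjusted p = 0.279, and 0.041 without control 1), where NDUFA4 read 290 to 478 CPM. UQCRHL, an intronless copy of the complex III subunit UQCRH, had 4 to 14 counts, 11 and 14 of them with mivebresib (summed ratio to control 2.29, 95% interval 1.09 to 5.16, edgeR adjusted p = 0.0563), so that reads placed wrongly from UQCRH cannot be told apart from its own. COX7A2L, which aids assembly of complexes into supercomplexes, lay between 149 and 213 CPM.

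The mitochondrially encoded mRNAs took 3.59% and 4.46% of all counts in the control libraries, 4.20% and 4.36% with romidepsin, 4.34% and 5.09% with quisinostat, and 4.94% and 4.41% with mivebresib. Control 1 was the lowest of the 8 libraries, control 2 lay among the treated libraries, and the range of every drug overlapped that of the controls. The nuclear members together took 0.974% and 0.757%, 0.695% and 0.774%, 0.887% and 0.793%, and 0.828% and 0.804%. The counts of mitochondrial over nuclear members were 3.68 and 5.89 in the controls, and of the treated libraries (4.90 to 6.41) 3 lay between the controls and 3 above both. Each difference in the mitochondrial share between a drug and control (mean 4.28% ± 0.112, 4.71% ± 0.527 and 4.68% ± 0.38 against 4.02% ± 0.615, SD, n = 2) was close to or below the SD of the controls. With 2 libraries a group an exact permutation test cannot go below p = 0.33, and none was run.

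**Figure D4:**
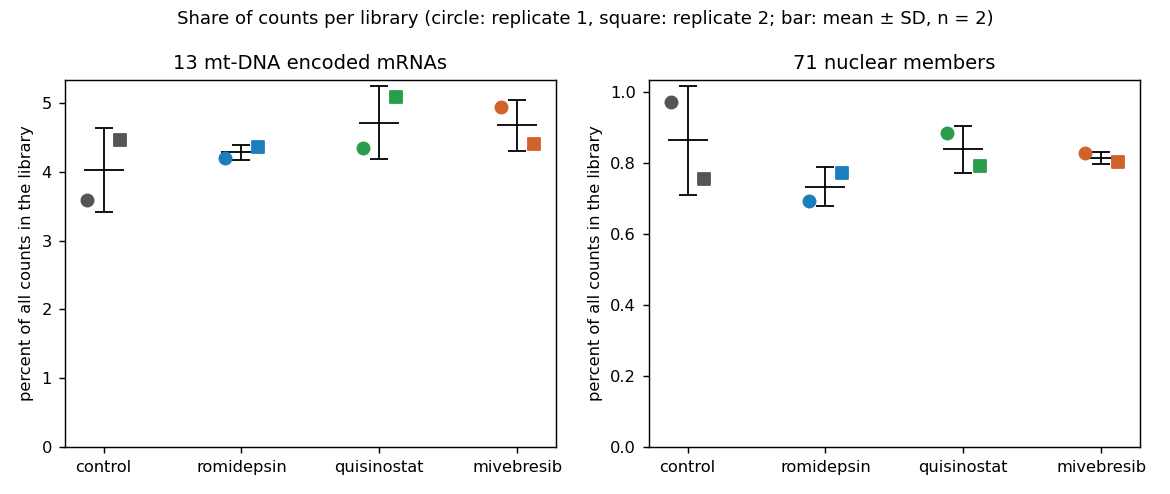
Percent of each library's counts (y axis, from 0) in the 13 mitochondrial mRNAs (left) and the 71 nuclear members (right) by group; circles are replicate 1, squares replicate 2, bars the mean ± SD of 2 libraries. Control 1 is lowest of all libraries for the mitochondrial mRNAs (3.59%) and highest for the nuclear members (0.974%).

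No mitochondrial mRNA passed against control with any drug in edgeR. At an unadjusted p under 0.05 there was 1 with romidepsin and none with the other drugs. DESeq2 called 1 as lower with romidepsin and none with the others, and limma-voom called none. The controls decided this count. Without control 2, in which all 13 were higher than in control 1, 8 rose with mivebresib (MT-ND1, MT-ND2, MT-ND4, MT-ND5, MT-ND6, MT-CYB, MT-CO1 and MT-CO3, log2 0.36 to 0.52), MT-CYB rose with romidepsin and MT-CO1 with quisinostat. Without control 1 none rose, and MT-ND6 fell with quisinostat (edgeR adjusted p = 0.0341). The mitochondrial median with mivebresib was 0.38 without control 2 and 0.073 without control 1. Their median log2 fold changes were -0.024, -0.06 and 0.18 for romidepsin, quisinostat and mivebresib. The lowest value with each drug was that of MT-ATP8 (-0.59, -0.43 and -0.25, with edgeR adjusted p = 0.0731, 0.132 and 0.375). MT-ATP8, an ATP synthase subunit, shares 46 bases with MT-ATP6 on the same strand, so its reads may not all be its own. MT-ATP8 read 63.7 and 71.1 CPM in control, 33.2 and 56.4 with romidepsin, 48.0 and 52.3 with quisinostat, and 49.8 and 63.3 with mivebresib. MT-ATP6 itself had -0.057, 0.033 and -0.025.

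Per kilobase of gene, the order of the mitochondrial mRNAs in control was led by the 3 complex IV subunits, MT-CO2 (9356 ± 1095 CPM per kb, SD, n = 2), MT-CO3 (8512 ± 1590) and MT-CO1 (7666 ± 1551), and this order held in both control libraries. MT-ND4 followed at 4117 ± 651, then MT-CYB at 2579 ± 687, MT-ND1 at 2170 ± 261, MT-ND4L at 2112 ± 133 and MT-ND2 at 1993 ± 235. MT-ATP6 (1562 ± 276), MT-ND3 (1317, with nearly equal controls) and MT-ND5 (1239 ± 175) came next, and MT-ND6 (497 ± 108), the one mRNA read from the other strand, and MT-ATP8 (326 ± 25.1) were last. These levels are of counts assigned to each gene. MT-ATP8 shares 46 bases with MT-ATP6 and MT-ND4L shares 7 with MT-ND4, so the genes of a pair are not separate measures. The controls differed in order only in MT-ND1 and MT-ND4L and in MT-ND3 and MT-ND5, which changed places. In all 4 groups the complex IV mRNAs held the top 3 places and MT-ND6 and MT-ATP8 the last.

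**Figure D5:**
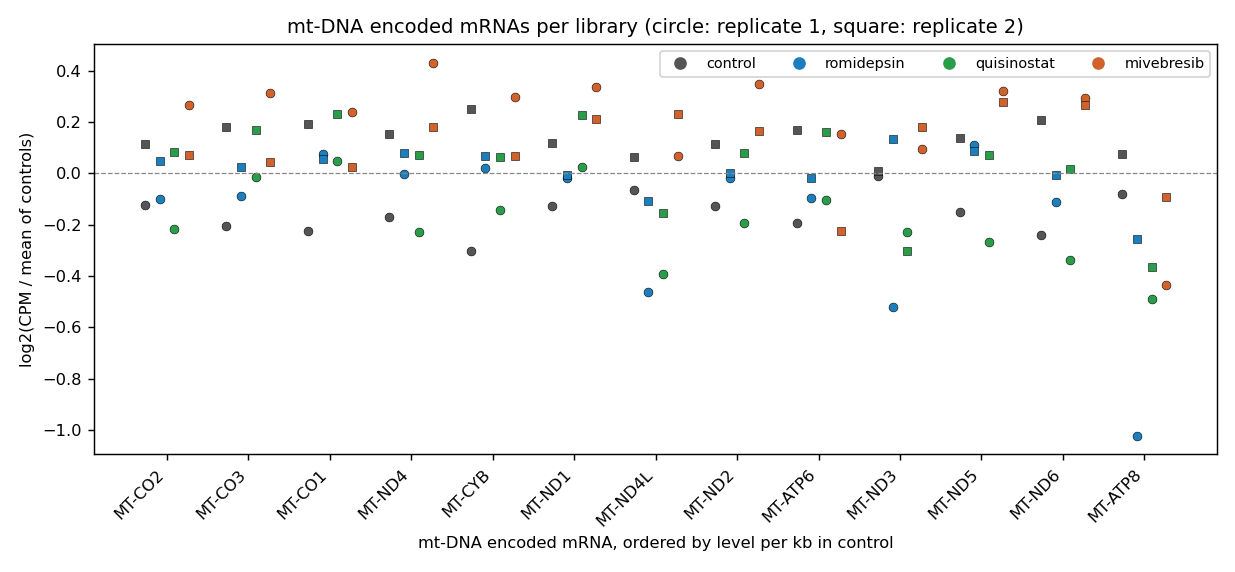
Log2 of CPM over the mean of the controls (y axis) for the 13 mitochondrial mRNAs (x axis, ordered by level per kb in control) in each of 8 libraries; circles are replicate 1, squares replicate 2. Control libraries straddle 0, MT-ATP8 is lowest with romidepsin, and both mivebresib libraries are above the control mean for each of the 7 ND mRNAs.

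Comparisons between drugs used none of the differences to control, but the spread in their tests came from all 8 libraries, with the controls among them. Quisinostat and romidepsin, both HDAC inhibitors, at the same 40 nM, differed in 4 members, all higher with quisinostat (NDUFA2, NDUFA5, NDUFB6 and NDUFV1), where 21.0% of all genes were higher and 14.6% lower. NDUFA5 differed by 0.47 (SE 0.12, edgeR adjusted p = 0.0165), NDUFB6 by 0.53 (SE 0.13, edgeR adjusted p = 0.012), NDUFA2 by 0.49 (SE 0.16, edgeR adjusted p = 0.0457) and NDUFV1 by 0.37 (SE 0.086, edgeR adjusted p = 0.0113). NDUFA2 and NDUFB6, accessory subunits of complex I, lie outside the naming rule and were chosen after their values were seen. DESeq2 gave 4 higher and 2 lower and limma-voom 4 higher and none lower, and in edgeR 2 nuclear members were lower at an unadjusted p under 0.05. The direction was not one-sided with the coding-length trend removed. In that fit 6 nuclear members were higher with quisinostat and 5 lower, where 22.2% and 19.8% of all genes were. Their median log2 difference was then 0.012, against 0.13 in the main fit. Fewer members differed when any 1 of the romidepsin or quisinostat libraries was left out. The shares of all genes in those fits are not given here.

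Mivebresib at 1200 nM differed from romidepsin in 11 members, 6 higher and 5 lower, where 23.7% of all genes were higher and 25.2% lower. From quisinostat it differed in 20, 11 higher and 9 lower, where 26.2% were higher and 31.5% lower. The doses differ, and both comparisons share the mivebresib libraries. Both counts were lower when any 1 library of the pair was left out. The shares of all genes in those fits are not given here. SDHA was higher with mivebresib than with romidepsin by 0.58 and than with quisinostat by 0.85 (SE 0.10 each, edgeR adjusted p = 0.00178 and 0.000176). CYCS was higher by 0.52 and 0.51 (SE 0.14 each, edgeR adjusted p = 0.0127 and 0.012). NDUFA9 was lower by log2 differences of -0.48 and -0.52 (SE 0.074 each, edgeR adjusted p = 0.000908 and 0.000432), NDUFB8 by -0.52 and -0.63 (SE 0.12 each, edgeR adjusted p = 0.00651 and 0.00185) and NDUFC1 by -0.99 and -0.85 (SE 0.23 each, edgeR adjusted p = 0.00759 and 0.0127). SDHA and CYCS stood at their highest, and these 3 accessory subunits of complex I at their lowest, in the same 2 libraries.

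In edgeR mitochondrial mRNAs differed between drugs only where mivebresib was 1 of the pair. Of the 13, 7.69% were higher with mivebresib than with romidepsin and 23.1% than with quisinostat. Neither share exceeded that of all genes (23.7% and 26.2%). DESeq2 called 1 and 6 as higher, and limma-voom 1 and 3. MT-ND4L was higher with mivebresib than with romidepsin by 0.43 and than with quisinostat by 0.42 (SE 0.14 each, edgeR adjusted p = 0.0344 and 0.0311). The gene of MT-ND4L shares 7 bases with MT-ND4 on the same strand, so its reads may not all be its own. MT-ND5 and MT-ND6 were higher than with quisinostat by 0.39 and 0.43 (SE 0.14 and 0.16, edgeR adjusted p = 0.0442 and 0.0462). All 3 encode complex I subunits, as do 7 of the 13 mitochondrial members. MT-ND5 read 2806 and 2720 CPM with mivebresib, 1866 and 2358 with quisinostat, 2422 and 2383 with romidepsin, and 2021 and 2469 in control. The mivebresib libraries were above the other 6 for MT-ND5 and for MT-ND6. Between quisinostat and romidepsin no mitochondrial mRNA differed in edgeR, DESeq2 or limma-voom, and none had an unadjusted p under 0.05.

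PPARGC1A, the coactivator of mitochondrial biogenesis, had 1 and 2 counts in control, 45 and 51 with romidepsin, 138 and 130 with quisinostat, and 4 and 1 with mivebresib. The HDAC inhibitor libraries were far above the other 4, with summed counts 30.6 times control for romidepsin (95% exact conditional interval 10.2 to 151) and 78.9 times for quisinostat (26.7 to 385), and edgeR adjusted p of 0.000245 and 8.78e-06. The level reached was 1.54 to 4.37 CPM. PPARGC1A passed the low-count filter only through the HDAC inhibitor libraries, where it was high, so its test is no separate support for the rise. In the same libraries NRF1, the factor named nuclear respiratory factor, fell from 10.8 and 11.5 CPM to 8.07 and 8.33 with romidepsin and 7.25 and 6.59 with quisinostat (log2 -0.45 and -0.69, SE 0.11 each, edgeR adjusted p = 0.0141 and 0.000783). GABPA, the DNA-binding subunit of GABP, fell from 41.8 and 45.5 to 22.7 and 21.9 and to 28.3 and 28.5 (log2 -0.97 and -0.62, SE 0.079 and 0.078, edgeR adjusted p = 0.000125 and 0.00026), and rose with mivebresib to 52.4 and 52.7 (log2 0.27, SE 0.077, edgeR adjusted p = 0.0209, and 0.0697 without control 1). Of 15 biogenesis regulators listed, 14 were tested. With romidepsin 1 rose and 7 fell, with quisinostat 3 and 6, and with mivebresib 1 and 5, with medians of -0.21, -0.093 and -0.10. Without control 1 these became 1 and 5, 2 and 6, and 0 and 5. For this and the next lists the shares of all genes given above (15.2% and 15.8%, 28.0% and 25.1%, 22.2% and 24.1%) are the background. PPRC1, a coactivator related to PPARGC1A, was the largest fall with quisinostat (-0.99, SE 0.11, edgeR adjusted p = 0.000104) and TFEB, a lysosomal gene regulator, with mivebresib (-1.69, SE 0.19, edgeR adjusted p = 0.0002). PPRC1 also fell with romidepsin and mivebresib (log2 -0.36 and -0.48, edgeR adjusted p = 0.0287 and 0.0055). TFEB rose with quisinostat (log2 0.46, edgeR adjusted p = 0.0418). GABPB2, a partner of GABPA, fell with all 3 drugs (-0.59, -0.56 and -0.51).

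Genes for the upkeep and transcription of mitochondrial DNA, 27 of 27 tested, rose in 3 and fell in 5 cases with romidepsin, 2 and 11 with quisinostat, and 7 and 4 with mivebresib. Without control 1 these were 4 and 4, 2 and 9, and 8 and 6. POLG, the catalytic subunit of the mitochondrial DNA polymerase, read 39.5 and 47.2 CPM in control, 28.1 and 24.7 with romidepsin, 20.6 and 17.8 with quisinostat, and 89.2 and 90.5 with mivebresib. It thus fell with the HDAC inhibitors and rose with the BET inhibitor (log2 -0.72, -1.17 and 1.05; SE 0.12, 0.12 and 0.11; edgeR adjusted p = 0.00276, 8.09e-05 and 0.000149). TOP1MT, the mitochondrial topoisomerase, had -0.89 with romidepsin (edgeR adjusted p = 0.000144), and MGME1, a mitochondrial DNA exonuclease, -0.92 with quisinostat (edgeR adjusted p = 7.67e-05). TOP1MT also fell with quisinostat and rose with mivebresib (log2 -0.66 and 0.46, edgeR adjusted p = 0.000142 and 0.00109). MGME1 also fell with romidepsin and mivebresib (log2 -0.53 and -0.47, edgeR adjusted p = 0.00351 and 0.00304). MTERF3, a repressor of mitochondrial transcription, rose by 0.81 with mivebresib (SE 0.075, edgeR adjusted p = 6.52e-05) and by 0.33 with romidepsin (SE 0.076, edgeR adjusted p = 0.0122). TFAM, which packages mitochondrial DNA and starts its transcription, read 66.0 and 56.2 in control, 55.7 and 58.0 with romidepsin, 52.9 and 50.7 with quisinostat, and 75.6 and 73.4 with mivebresib, where it rose by 0.29 (SE 0.092, edgeR adjusted p = 0.0314, and 0.00216 without control 1). POLRMT, the mitochondrial RNA polymerase, lay between 15.8 and 19.8 CPM in all libraries and passed with no drug.

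The nuclear subunits of ATP synthase, 18 of 18 tested, fell in 3 cases with romidepsin, 5 with quisinostat and 6 with mivebresib (medians -0.38, -0.32 and -0.33, and without control 1 -0.11, -0.11 and 0.074, when 1, 3 and 5 fell and 1 rose with quisinostat and 1 with mivebresib), shares near those of all genes with the HDAC inhibitors. ATP5MC1, which encodes a subunit of the membrane ring, fell with mivebresib from 27.6 ± 5.94 to 12.9 ± 1.51 CPM (SD), with a log2 fold change of -1.09 (SE 0.17, edgeR adjusted p = 0.00102). ATP5F1B, the catalytic beta subunit, fell with quisinostat from 828 and 786 to 593 and 566 (log2 -0.48, SE 0.089, edgeR adjusted p = 0.00221). Assembly factors, which build the complexes and are not part of them, were 45 of 45 tested, and 2 rose and 8 fell after romidepsin, 8 and 9 after quisinostat, and 9 and 14 after mivebresib. Without control 1 these were 4 and 4, 12 and 6, and 13 and 12. UQCC2, which assists cytochrome b of complex III, fell with romidepsin by 0.78 and with quisinostat by 1.06 on the log2 scale (SE 0.14 each, edgeR adjusted p = 0.00417 and 0.000348). With quisinostat SDHAF3 and NUBPL, which supply complexes II and I with iron-sulfur clusters, rose by 0.90 and 0.75 (edgeR adjusted p = 0.00231 and 0.000132). With mivebresib SDHAF3 also rose and NUBPL fell (log2 0.69 and -0.66, edgeR adjusted p = 0.0108 and 0.000445). With mivebresib the complex III factors LYRM7 and TTC19 rose by 0.84 and 0.75 (edgeR adjusted p = 5.96e-05 and 0.000161), and the complex IV factors COA6 and TACO1 fell by 1.23 and 0.98 on the log2 scale (edgeR adjusted p = 0.000444 and 0.000577). LYRM7 also rose with quisinostat (log2 0.59, edgeR adjusted p = 0.000287), and COA6 also fell with romidepsin (log2 -0.5, edgeR adjusted p = 0.0422).

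Promoter sequence was examined for the binding motifs of the 3 factors, on both strands, from 250 bases before to 50 after the RefSeq start (GRCh38.p14), where a window was at hand for 57 of the 71 nuclear members. The NRF1 motif, a GC-rich site, lay in 13 of the 57 (22.8%), against 6.28% of all 27305 promoters and 10.9% of those of tested genes. The GABP motif CCGGAAGT lay in 8 of the 57, against 4.44% and 8.16%, and the YY1 motif in 4 (7.02%, against 0.916% and 1.85%). In the members no match to 1 factor's motif overlapped that of another, 2 NRF1 matches in NDUFA8 overlapped each other, and a match is a description, not a bound site. Stretches upstream of the start are shown for SDHA, which rose with mivebresib, and for NDUFA9 and NDUFB4, which fell with it, because all 3 hold the NRF1 motif, in capitals. They lie at chr5:218140-218240, chr12:4648994-4649094 and chr3:120596166-120596308, all on the plus strand, and end before the annotated gene start.
SDHA: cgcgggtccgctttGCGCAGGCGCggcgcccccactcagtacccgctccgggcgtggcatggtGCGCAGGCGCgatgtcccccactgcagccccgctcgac
NDUFA9: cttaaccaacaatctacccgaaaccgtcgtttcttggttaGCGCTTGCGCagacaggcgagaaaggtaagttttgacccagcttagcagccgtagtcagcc
NDUFB4: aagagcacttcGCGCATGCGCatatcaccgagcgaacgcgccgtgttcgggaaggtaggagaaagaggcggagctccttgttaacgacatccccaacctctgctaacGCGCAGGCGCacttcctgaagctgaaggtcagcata
In SDHA the motif occurred 4 times in the full window, starting 166, 117, 68 and 19 bases before the start, as GCGCAGGCGC each time. In NDUFB4 it occurred 3 times, at 159, 63 and 8 bases before the start, and in NDUFA9 once, at 80 bases before, where GCGCTTGCGC is the motif read on the minus strand. All 3 were chosen for holding the motif, so its presence in members that rose or fell with mivebresib follows from that choice. Whether the motif goes with the direction of change was not tested.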

How the data were processed

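RNA of 8 MP38 libraries, 2 for each of 4 groups, was sequenced as strand-specific mRNA libraries. The authors processed the reads with BioJupies and deposited a table of raw counts per gene symbol, on build hg38 per the labels, and the aligner, annotation and strand setting are not given in the sources used here. A deposited table of log10 values of CPM + 1 and a deposited table of quantile-normalized scores, of unnamed scale, were not used for tests. For testing, R 4.3.3 and the package edgeR 4.0.16 were used: genes were kept by filterByExpr, scaled by TMM and fitted by quasi-likelihood over all 8 libraries without a block, with Benjamini-Hochberg adjustment over 15085 genes, and a standard error is the log2 fold change divided by the square root of F. DESeq2 1.42.0, limma-voom (limma 3.58.1), other scalings, filters and left-out libraries were alternatives. The script was tested on simulated data. Positions, gene types and exonic overlaps come from GENCODE 29. The labels give the libraries only a replicate number. Deviations of same-numbered libraries correlated at -0.16 to 0.16, which cannot settle whether they were handled as pairs. Named members were those past both thresholds, the largest rise and fall per drug and complex, core subunits, paralog pairs and the mitochondrial mRNAs. The members and lists were chosen with earlier results of these data known. The values of 1 member are not reported here, although the counts include it.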

Additional observations from a re-analysis of the deposited data

How the results depend on the processing

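The counts of members called against control moved with the scaling and with single libraries. Except where given above, the shares of all genes in these fits are not given. A shift in a count is therefore no result about the members. With 1 library left out at a time, the nuclear medians ranged from -0.59 to -0.12, -0.43 to -0.032 and -0.42 to -0.039 with romidepsin, quisinostat and mivebresib, and the mitochondrial ones from -0.14 to 0.13, -0.23 to 0.086 and 0.073 to 0.38. With library size alone as scaling, 6 members fell with romidepsin, 4 fell and 7 rose with quisinostat, and 10 differed between quisinostat and romidepsin. With upper-quartile factors 6 fell with romidepsin, 8 fell with quisinostat and 3 rose with mivebresib. With only the 4 libraries of a comparison 2 fell with romidepsin, 1 rose with quisinostat and 10 fell with mivebresib, and the drug pairs differed in 13, 24 and 35 members. With the coding-length trend removed, chosen after seeing the data, 5 rose and 28 fell with quisinostat, 6 rose with mivebresib, and the pairs differed in 11, 20 and 34. The cause of these shifts was not tested. Leaving out 1 library at a time gave 1 to 2 higher and 0 to 50 lower with romidepsin, 1 to 8 and 3 to 44 with quisinostat, 1 to 9 and 7 to 47 with mivebresib, and 0 to 2, 4 to 8 and 9 to 13 differences for quisinostat and romidepsin, mivebresib and romidepsin, and mivebresib and quisinostat. The mitochondrial share with romidepsin over control was 1.06, and 1.22 relative to the counts of nuclear members. The libraries share only a replicate number. With the replicate block 11, 20 and 16 members fell with romidepsin, quisinostat and mivebresib, against 15, 18 and 16. Of all 53 calls of members against control, 46 passed. Of the 53, 51 passed with DESeq2 and 29 without control 1. Depth limits COX6B2, UQCRHL and NDUFA4L2, with at most 34 counts in a library.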
